A study of Rattus norvegicus with 12 samples.

Results

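The genes described here encode the enzymes and carriers that take a long-chain fatty acid through activation, carnitine transfer, mitochondrial beta-oxidation, electron transfer and peroxisomal oxidation. They were chosen as a list of 39 gene symbols. On the array, which carries 22517 probes for 13336 named genes, 36 of them had a named probe. These 36 genes had 38 probes, of which 34, each for a different gene, were detected widely enough to be tested among 9054 probes in all. Acacb, Echdc3 and Ehhadh had no named probe here. The probes of Acaca and Acot1, and a second probe each of Crat and Echdc1, were too dim to be tested.

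RNA came from the left ventricle of 6 hearts of VEGF-B transgenic (TG) rats and 6 hearts of their wildtype (WT) littermates. All 12 rats were males of the Wistar background aged 2 months, and the WT rats carried no transgene. The transgene was driven by the αMHC promoter, which is active in cardiomyocytes, on the outbred HsdBrl:WH Wistar background, so the model reflects VEGF-B made by the heart's muscle cells. Each RNA was hybridised to 1 Illumina RatRef-12 BeadChip array, and the comparison asks which transcripts of the pathway differ between TG and WT hearts.

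The adult heart draws most of its ATP from long-chain fatty acids. Acyl-CoA synthetases activate the fatty acid, the carnitine palmitoyltransferases carry it into mitochondria under the control of malonyl-CoA, and each turn of the beta-oxidation spiral uses a dehydrogenase, a hydratase, a second dehydrogenase and a thiolase to release acetyl-CoA. Double bonds need auxiliary isomerases and a reductase, and electrons from the acyl-CoA dehydrogenases reach the respiratory chain through the electron transfer flavoprotein. Peroxisomes shorten very long and branched chains with a related set of enzymes.

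The arrays correlated closely, but the counts of detected probes leaned higher in TG hearts. The number of detected probes was 8820 to 9655 for TG hearts, highest in TG replicate 6, and 8452 to 9251 for WT hearts, lowest in WT replicate 4. Every pair of arrays correlated at 0.970 or above. The signal of the rat Vegfb probe was 5.99 to 8.58 on the log2 scale in TG hearts and 6.42 to 10.1 in WT hearts (difference −1.04, SE 0.58, adjusted p = 0.227, limma). Whether this probe detects the transgene is not given in the sources used here, so it does not check the labels. The samples held heart muscle, since the cardiomyocyte genes Myh6, Tnnt2 and Tnni3 gave log2 signals of 14.4 or more in every heart. Other cardiomyocyte probes were dimmer, with 9.32 to 10.14 for Myl2 and 7.59 to 8.06 for Actc1. The chamber given in the labels was not tested.

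Of the 34 members tested, 15 were lower, 1 was higher and 18 did not pass an adjusted p of 0.05 (limma, Benjamini-Hochberg over all 9054 tested probes). Among all tested probes 10.3% were lower and 11.6% were higher by the same rule. These shares are not matched for brightness, as the median WT log2 signal was 11.52 for the members and 8.04 for all tested probes. The log2 difference between TG and WT was below 0 for 29 of the 34 members (85.3%), against 51.7% of all tested probes. Its median was −0.22 over the members and −0.009 over all tested probes. In 6 members, Acsl1, Mlycd, Echdc2, Hadha, Acaa2 and Eci2, every TG value lay below every WT value, a pattern seen in 5.06% of all tested probes. The mean log2 signal of the 34 members was 10.69 to 11.015 in the TG hearts and 11.001 to 11.16 in the WT hearts, and 1 TG heart reached the lowest WT heart.

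Markers of other cell types moved with the same groups. The mean log2 signal of 16 cardiomyocyte probes was 12.16 to 12.26 in TG hearts and 12.31 to 12.41 in WT hearts, with a median difference of −0.10. Of these probes 3 were lower (18.8%, beside 10.3% of all tested probes), those of Casq2 and Myl2 and a probe of Ryr2 (−0.32, adjusted p = 0.0117, limma). The other tested Ryr2 probes differed by −0.24 (adjusted p = 0.0514) and −0.08 (adjusted p = 0.416) and did not pass in limma. Of 11 endothelial probes 7 were higher (63.6%, beside 11.6% of all tested probes). Their median difference was 0.57 over the 11, with list means of 9.43 to 9.71 in TG hearts and 8.99 to 9.24 in WT hearts. All 6 macrophage probes tested were higher (beside 11.6% of all tested probes, median 0.56), with list means of 8.57 to 9.06 and 8.15 to 8.39. Of 8 fibroblast probes 1 was lower (12.5%, beside 10.3% of all, median 0.09). Of 3 adipocyte probes tested 2, Cfd and Fabp4, were higher (66.7%, beside 11.6% of all). The third, Cidec, was detected on 6 TG and 6 WT arrays and differed by −0.01 (adjusted p = 0.926, limma). Adipoq, Lep, Retn and Ucp1 were detected on 0 arrays. None of the 4 erythroid probes tested passed. The part of cell composition in the values below was not tested, and in bulk tissue fewer cells of a type and less RNA per cell cannot be told apart.

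**Figure D1:**
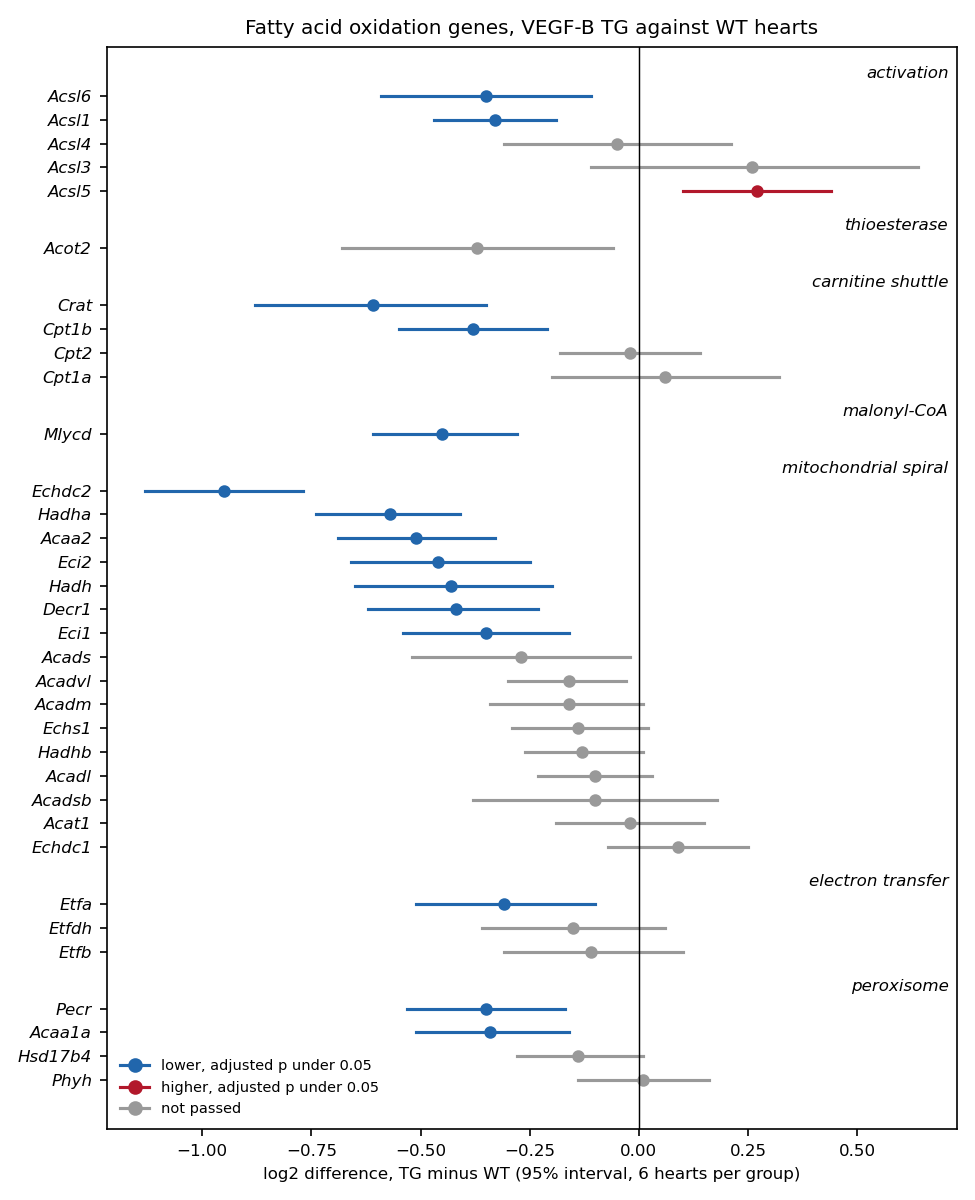
Log2 difference between TG and WT hearts (x axis) for the 34 tested members, grouped by pathway step (y axis). Points are limma estimates and lines their 95% intervals from 6 hearts per group. The 15 lower members are blue, Acsl5 is red, and 18 members that did not pass are grey. Echdc2 lies farthest from 0 at −0.95.

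The activation step held members that moved in opposite directions. Of the 5 long-chain acyl-CoA synthetases, Acsl1 and Acsl6 were lower, Acsl5 was higher and Acsl3 and Acsl4 did not pass. The log2 signal of Acsl1, the main synthetase of cardiac muscle, had a lowest, median and highest value of 12.35, 12.60 and 12.70 in TG hearts and of 12.83, 12.92 and 12.95 in WT hearts. The groups did not overlap, and TG replicate 6 was the lowest heart. The difference of Acsl1 was −0.33 (SE 0.07, adjusted p = 0.00268), which put TG hearts at 79.6% of WT.

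Acsl5, a synthetase of the mitochondrial outer membrane and endoplasmic reticulum better known from intestine and liver, gave 8.32, 8.53 and 8.65 in TG hearts and 8.09, 8.19 and 8.45 in WT hearts. Its groups overlapped, since WT replicate 6 lay above 2 TG hearts. The difference of 0.27 (SE 0.08, adjusted p = 0.0241) was the single rise among the members, and its adjusted p went to between 0.0502 and 0.0517 without TG replicate 1, TG replicate 5 or WT replicate 3. Acsl6, best known from brain and red cell precursors, differed by −0.35 (SE 0.11, adjusted p = 0.0381). This call was lost when any of 7 hearts was left out (TG replicates 1, 3, 5 and 6 and WT replicates 1, 2 and 5, adjusted p of 0.0623 to 0.0832). Acsl3, found on lipid droplets and the endoplasmic reticulum, differed by 0.26 (SE 0.18, adjusted p = 0.313), and Acsl4, which prefers arachidonic acid, by −0.05 (95% interval −0.31 to 0.21).

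The thioesterases hydrolyse acyl-CoA back to the free acid. Acot2, the mitochondrial enzyme, gave 7.35, 7.94 and 8.50 in TG hearts and 8.05, 8.28 and 8.44 in WT hearts. In 5 of 6 TG hearts it lay below the lowest WT heart, and TG replicate 3 lay above the highest. The difference of −0.37 (SE 0.14) had an adjusted p of 0.0808, and of 0.00797 without TG replicate 3. Acot1, its cytosolic paralog, was detected on 1 TG array and 4 WT arrays, with 5.31, 5.41 and 6.12 in TG hearts against 5.51, 6.12 and 6.64 in WT hearts. It was not tested in the main fit, and in the fit without a detection filter its difference was −0.57 (adjusted p = 0.0741). The 2 genes are close in sequence, and whether their probes tell them apart was not tested.

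In the carnitine shuttle, Cpt1b and Crat were lower, whereas Cpt1a and Cpt2 did not pass. Crat encodes carnitine acetyltransferase, which buffers mitochondrial acetyl-CoA by turning it into acetylcarnitine. Its log2 signal was 10.10, 10.33 and 10.93 in TG hearts and 10.76, 11.02 and 11.24 in WT hearts. One TG heart, replicate 3, lay within the WT range, and the other 5 lay below it. The difference was −0.61 (SE 0.13, adjusted p = 0.00309), or 65.4% of WT.

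Cpt1b, the muscle form of the outer-membrane transferase that commits the acyl group to the mitochondrion, gave 10.84, 10.87 and 11.29 in TG hearts and 11.24, 11.31 and 11.41 in WT hearts. The other TG hearts stood close together and TG replicate 3 alone reached the WT range. The difference was −0.38 (SE 0.08, adjusted p = 0.00399), or 76.8% of WT. Cpt1a, the form best known from liver, differed by 0.06 (95% interval −0.20 to 0.32), and Cpt2, which regenerates acyl-CoA on the inner membrane, by −0.02 (95% interval −0.18 to 0.14).

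Whether Cpt1b and Cpt1a moved by different amounts was tested on the log2 signal of Cpt1b minus that of Cpt1a within each heart. This quantity was 0.63 to 1.00 in TG hearts and 1.05 to 1.56 in WT hearts, so the groups did not overlap. The 2 forms differed in their change by −0.44 (2-sided exact permutation test over arrays, p = 0.00216, adjusted p = 0.00649 over 6 pairs). That p is the smallest that 6 against 6 hearts allow.

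Malonyl-CoA inhibits the CPT1 enzymes, and Mlycd encodes malonyl-CoA decarboxylase, which removes it. Mlycd gave 11.35, 11.47 and 11.81 in TG hearts and 11.84, 11.94 and 12.03 in WT hearts. The groups did not overlap, although TG replicate 3 came within 0.04 of the lowest WT heart. The difference was −0.45 (SE 0.08, adjusted p = 0.00106), or 73.4% of WT. Acaca, one of the acetyl-CoA carboxylases that make malonyl-CoA, was detected on 0 arrays, and Acacb, the mitochondrial carboxylase of muscle, had no named probe, so the synthetic side was not measured.

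**Figure D2:**
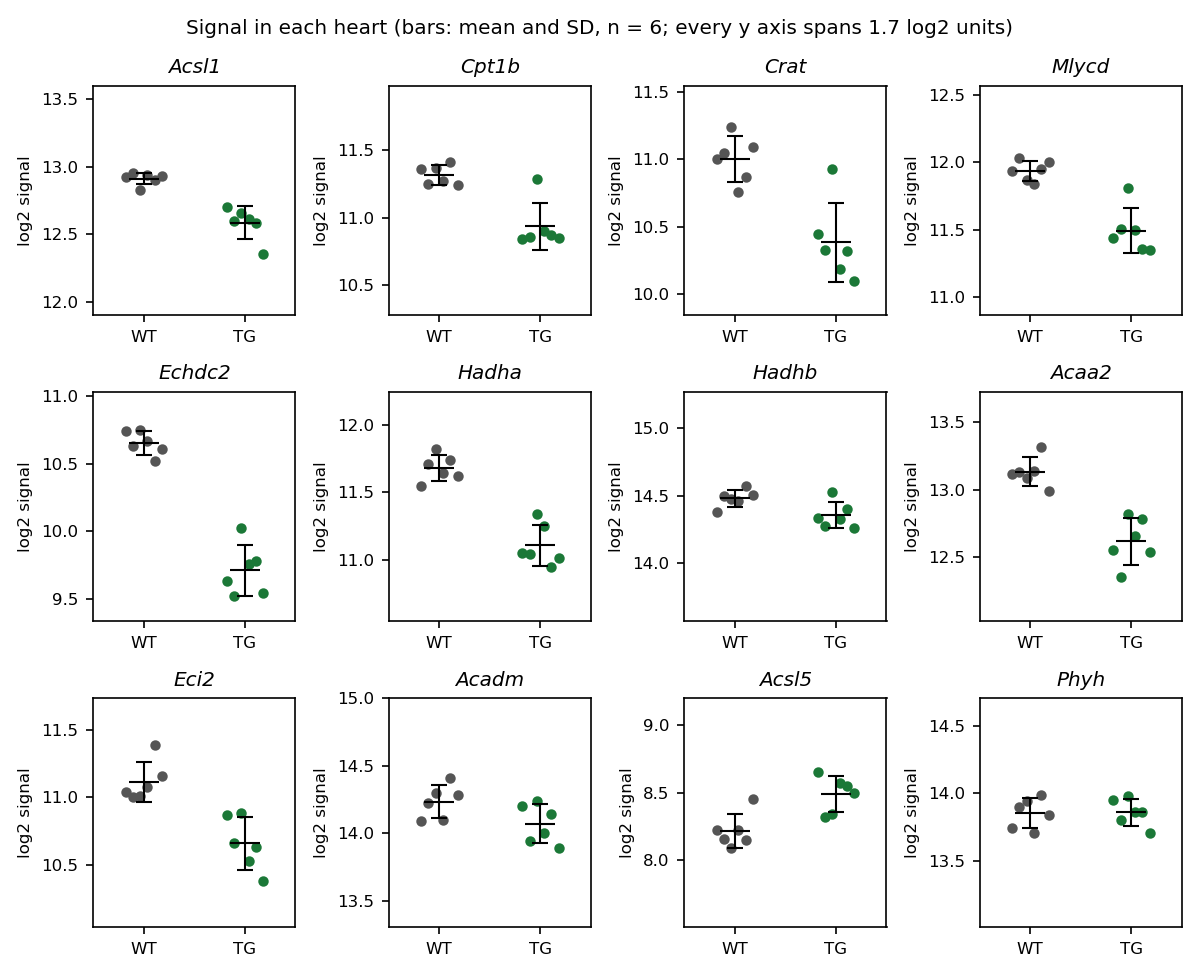
Log2 signal (y axis, each spanning 1.7 log2 units) of 12 members in 6 WT and 6 TG hearts, with bars for the mean and SD. Echdc2, Hadha, Acaa2, Mlycd, Eci2 and Acsl1 show no overlap between groups, Cpt1b and Crat each have 1 TG heart in the WT range, Acsl5 is higher in TG hearts, and Hadhb, Acadm and Phyh overlap.

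The group listed as the mitochondrial spiral, which includes the cytosolic Echdc1, contributed 16 tested members. Of these 7 were lower and 0 higher (beside 10.3% and 11.6% of all tested probes), with a median difference of −0.22. Echdc2 showed the largest difference of all 34 members. It encodes a mitochondrial protein of the enoyl-CoA hydratase family whose own substrate is less well defined than those of its relatives. Its log2 signal was 9.52, 9.70 and 10.02 in TG hearts and 10.52, 10.65 and 10.75 in WT hearts. The gap of 0.50 between the groups was as wide as the whole TG range (0.50) and wider than the WT range (0.23), which held for no other member. Before normalisation the mean intensity was 963 ± 120 (SD, n = 6) in TG hearts and 1782 ± 149 in WT hearts. The difference was −0.95 (SE 0.08, adjusted p = 3.65e-06), or 51.9% of WT, and rests on a single probe, ILMN_1649852.

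Hadha and Hadhb encode the alpha and beta subunits of the mitochondrial trifunctional protein, which carries out the last 3 reactions of the long-chain spiral. Hadha gave 10.95, 11.05 and 11.34 in TG hearts and 11.55, 11.68 and 11.82 in WT hearts, with no overlap and a difference of −0.57 (SE 0.08, adjusted p = 1.63e-04). Hadhb gave 14.26, 14.34 and 14.53 in TG hearts and 14.38, 14.49 and 14.57 in WT hearts. The Hadhb groups overlapped, and the difference of −0.13 (SE 0.06, 95% interval −0.26 to 0.01) had an adjusted p of 0.174.

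The subunits therefore differed in their measured change, by −0.45 for Hadha minus Hadhb, whose values were −3.45 to −3.09 in TG hearts and −2.89 to −2.66 in WT hearts. The groups did not overlap (2-sided exact permutation test, p = 0.00216, adjusted p = 0.00649 over 6 pairs). The probes of Acadl, Hadhb and Acadm had mean WT signals of 14.79, 14.48 and 14.23, near the top of the array's scale. Above a WT mean of 14, a level chosen after the values were seen, 0 of 3 members and 6 of 104 tested probes (5.77%) were lower. The part of a compressed scale in the small difference of Hadhb was not tested.

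The 2 genes lie head to head on rat chromosome 6, with 300 bases between their start sites. The 200 bases that their promoter windows share are shown because the subunits were measured with different changes although they have this stretch in common. The sequence is from RefSeq (build GRCr8, plus strand, chr6:31907551-31907750), 5′ to 3′, with a GC box (GGGCGG, read here as its complement) in capitals.
Hadha and Hadhb: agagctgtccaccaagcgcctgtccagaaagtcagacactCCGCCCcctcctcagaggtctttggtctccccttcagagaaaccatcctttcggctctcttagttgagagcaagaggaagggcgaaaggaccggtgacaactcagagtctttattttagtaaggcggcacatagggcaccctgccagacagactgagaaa

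Hadh, a second dehydrogenase of the spiral, and Acaa2, a thiolase, were also lower, whereas the thiolase Acat1 did not pass. Acaa2, the mitochondrial 3-ketoacyl-CoA thiolase, gave 12.35, 12.61 and 12.82 in TG hearts and 12.99, 13.12 and 13.32 in WT hearts. Its groups did not overlap, and the difference was −0.51 (SE 0.08, adjusted p = 6.71e-04), or 70.1% of WT. Hadh, the dehydrogenase for medium and short chains, differed by −0.43 (SE 0.11, adjusted p = 0.00979), with 5 of 6 TG hearts below the lowest WT heart.

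The transcripts of all 3 auxiliary enzymes for unsaturated fatty acids listed with the spiral were lower (beside 10.3% of all tested probes), with a median of −0.42. Eci1 and Eci2 are isomerases that move a double bond, and Decr1 is the dienoyl-CoA reductase. Eci2 gave 10.38, 10.65 and 10.88 in TG hearts and 10.995, 11.06 and 11.39 in WT hearts, with no overlap and a difference of −0.46 (SE 0.10, adjusted p = 0.00392). Decr1 differed by −0.42 (SE 0.09, adjusted p = 0.00399) and Eci1 by −0.35 (SE 0.09, adjusted p = 0.0109). In both, 5 of 6 TG hearts lay below the lowest WT heart.

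The first dehydrogenases of the spiral did not pass. These are Acadvl, Acadl, Acadm and Acads, for very long, long, medium and short chains, and Acadsb, for short branched chains from isoleucine. All 5 differences were below 0 (beside 51.7% of all tested probes), from −0.27 to −0.10 with a median of −0.16. In limma 0 of 5 were lower, beside 10.3% of all tested probes, so this count is not read as a result about the step. Acadvl and Acads had unadjusted limma p-values of 0.0221 and 0.0331. Acadm, the gene whose product handles medium chains, gave 13.89, 14.07 and 14.24 in TG hearts and 14.09, 14.25 and 14.41 in WT hearts, which overlapped (difference −0.16, 95% interval −0.34 to 0.01). Acadvl had an adjusted p of 0.0826, and of 0.0479 without WT replicate 4, while Acads had 0.110, and 0.0428 without the same heart. A test between Acadvl and Acads did not separate their changes (0.11, exact p = 0.487, adjusted p = 0.487 over 6 pairs).

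Echs1, the short-chain enoyl-CoA hydratase, differed by −0.14 (95% interval −0.29 to 0.02). Acat1, the thiolase that also serves ketone bodies and isoleucine, differed by −0.02 (95% interval −0.19 to 0.15). Echdc1, a cytosolic decarboxylase of ethylmalonyl-CoA that belongs to the hydratase family, differed by 0.09 (95% interval −0.07 to 0.25). Their groups all overlapped.

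**Figure D3:**
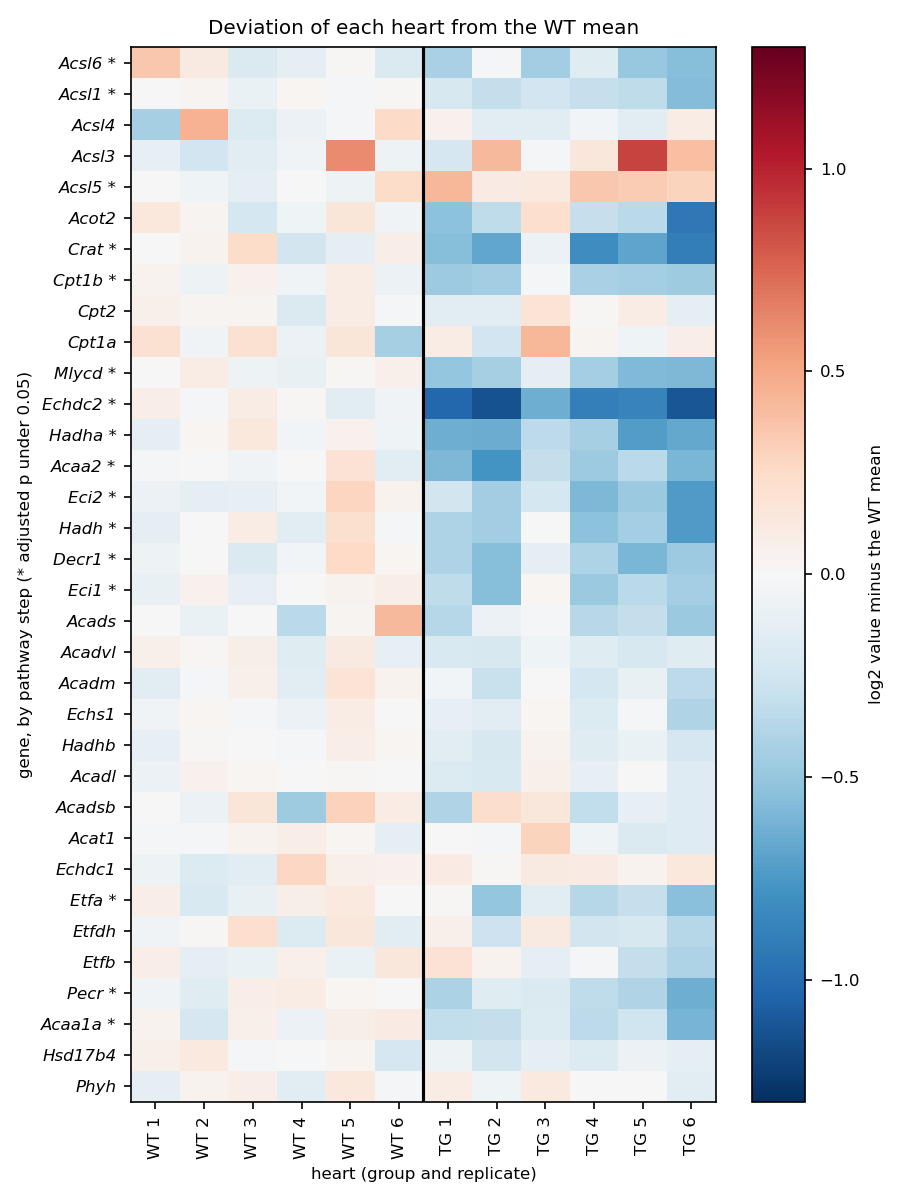
Deviation of each heart's log2 signal from the WT mean (colour, log2 units) for the 34 tested members (y axis, by pathway step, an asterisk marking an adjusted p under 0.05) in 6 WT and 6 TG hearts (x axis). TG replicate 3 is paler than the other TG hearts over most lower members, and TG replicate 6 is the darkest in many.

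Of the 3 genes that pass electrons from the acyl-CoA dehydrogenases to ubiquinone, Etfa was lower. Etfa encodes the alpha subunit of the electron transfer flavoprotein and gave 10.82, 11.03 and 11.38 in TG hearts and 11.17, 11.40 and 11.49 in WT hearts. These ranges overlapped, with 4 of 6 TG hearts below the lowest WT heart. The difference was −0.31 (SE 0.10, adjusted p = 0.036), and the call was lost when any of 8 hearts was left out (TG replicates 2, 4, 5 and 6 and WT replicates 1, 4, 5 and 6, adjusted p of 0.0581 to 0.0802). Etfb, the beta subunit, differed by −0.11 (95% interval −0.31 to 0.10), and Etfdh, the ubiquinone oxidoreductase, by −0.15 (95% interval −0.36 to 0.06). The changes of Etfa and Etfb were not separated in the pair test (−0.20, exact p = 0.0671, adjusted p = 0.101 over 6 pairs). With no background correction, normexp on the intensities, median scaling or the deposited log2 table this pair did pass (adjusted p of 0.0195 to 0.026).

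The peroxisomal members were split. Pecr reduces trans-2-enoyl-CoA, a step of chain elongation more than of oxidation, and gave 9.26, 9.53 and 9.74 in TG hearts and 9.74, 9.91 and 9.99 in WT hearts. The ranges overlapped by 0.01, and the difference was −0.35 (SE 0.08, adjusted p = 0.00769). Acaa1a, the peroxisomal thiolase, differed by −0.34 (SE 0.08, adjusted p = 0.00882). Hsd17b4, which combines a hydratase and a dehydrogenase, differed by −0.14 (95% interval −0.28 to 0.01), and Phyh, which starts the alpha-oxidation of phytanic acid, by 0.01 (95% interval −0.14 to 0.16).

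Beyond the Cpt1 and Hadha pairs, 4 of the 6 pairs tested did not pass. Besides those already given, Acsl1 minus Acsl3 changed by −0.59 (exact p = 0.0281, adjusted p = 0.0563, and adjusted p = 0.026 without TG replicate 1 and 0.013 without WT replicate 5), and Eci1 minus Eci2 by 0.10 (exact p = 0.262, adjusted p = 0.314). Of 8 pairs planned, those of Acot2 with Acot1 and of Acacb with Acaca could not be run.

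The TG hearts differed among themselves in the 15 lower members. TG replicate 3 had the highest TG value in 11 of the 15, lay below the lowest WT heart in 8, and deviated from the WT mean by a median of −0.17. TG replicate 6 had the lowest TG value in 9 and lay below the lowest WT heart in all 15, with a median deviation of −0.59. The other 4 TG hearts had median deviations of −0.46 to −0.41. Without TG replicate 3, 15 members were lower, of which 14 were among the original 15, with Acsl6 lost and Acot2 gained, and the median difference over the tested members was −0.26.

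**Figure D4:**
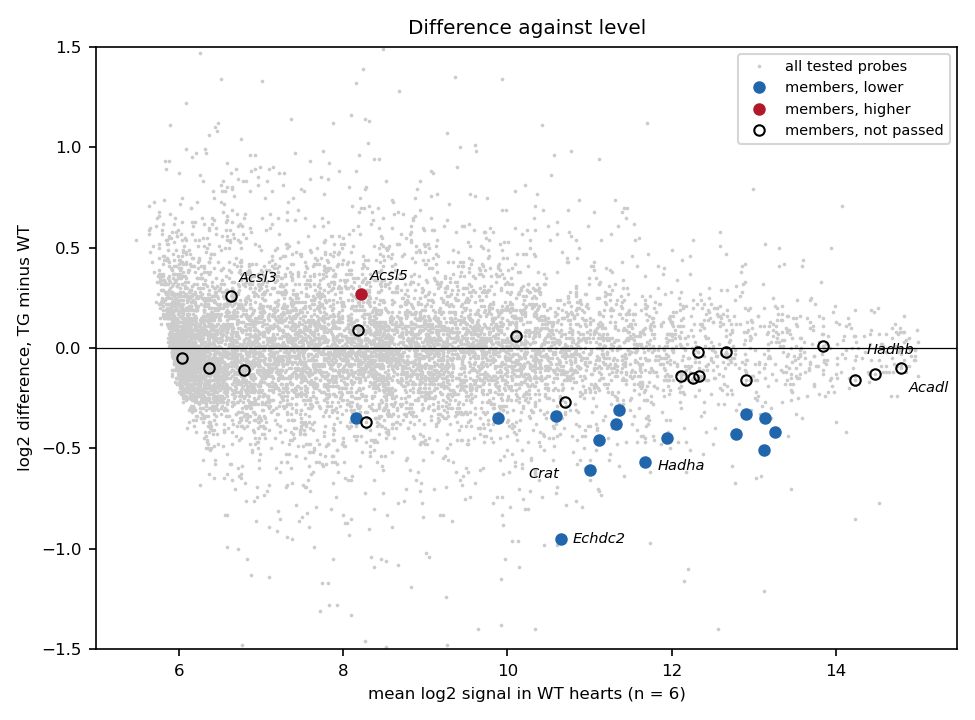
Log2 difference between TG and WT hearts (y axis) against the mean log2 signal in 6 WT hearts (x axis), with all tested probes in light grey and the 34 tested members marked by call. The y axis is limited to 1.5 in each direction, which leaves out 22 probes. Members lie mostly below 0, and those with the brightest probes, Acadl, Hadhb and Acadm, lie within 0.16 of 0.

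A second list named other genes around the pathway, namely 25 carriers, further thioesterases and dehydrogenases, and peroxisomal enzymes. Of its 18 genes tested, 3 were lower (16.7%, beside 10.3% of all tested probes) and 0 higher, with a median of −0.15. The lower genes were Decr2, the peroxisomal dienoyl-CoA reductase (−0.48, SE 0.11, adjusted p = 0.00818), Acad11, a dehydrogenase of very long chains (−0.32, SE 0.09, adjusted p = 0.0191), and Slc22a5, the plasma membrane carnitine carrier (−0.34, SE 0.10, adjusted p = 0.0285). Slc25a20, the carnitine-acylcarnitine carrier of the inner membrane, differed by −0.30 (adjusted p = 0.0574) and did not pass.

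Among regulators of the pathway, 16 probes of 15 genes were tested, of which 2 were lower (12.5%, beside 10.3% of all) and 1 was higher (6.25%, beside 11.6%). Rxrg, a retinoid X receptor that pairs with the PPARs, was lower (−0.48, SE 0.10, adjusted p = 0.00414), as was 1 of 2 probes of Rxrb (−0.20, SE 0.07, adjusted p = 0.0413), while the other differed by −0.27 (adjusted p = 0.237). Pparg, the PPAR best known from adipocytes, gave 6.02 to 6.53 in TG hearts and 5.61 to 5.90 in WT hearts. It was detected on 6 TG arrays and 1 WT array, so it entered the test only through the group where it is high. Its higher call (0.46, SE 0.09, adjusted p = 0.00229, limma) is therefore not read as a rise. Ppara, the receptor that drives these genes in heart and liver and named here for that role, was dim, detected on 4 TG and 5 WT arrays, with 5.61 to 6.46 in TG hearts and 5.95 to 7.11 in WT hearts (−0.42, SE 0.20, adjusted p = 0.164). Ppargc1a, its coactivator, differed by 0.02 (adjusted p = 0.892).

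Genes that answer to PPARs outside beta-oxidation gave a median of −0.03 over 12 tested, with 2 lower (16.7%, beside 10.3% of all tested probes) and 0 higher. The lower genes were Cidea, a lipid droplet protein (−0.56, SE 0.09, adjusted p = 6.48e-04), and Plin5, which coats lipid droplets next to mitochondria (−0.51, SE 0.13, adjusted p = 0.0112). The next smallest p-values were those of Ucp2 (0.29, SE 0.11, adjusted p = 0.0703) and Plin2 (0.27, SE 0.10, adjusted p = 0.0728). Both differences were above 0 and did not pass. Pdk4, the pyruvate dehydrogenase kinase induced by fatty acids, differed by −0.13 (SE 0.30, adjusted p = 0.794) over ranges of 8.98 to 10.70 in TG hearts and 9.30 to 10.71 in WT hearts. Cd36, a fatty acid transporter, differed by −0.05 (SE 0.08, adjusted p = 0.679).

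Pyruvate oxidation and the tricarboxylic acid cycle, which receive the acetyl-CoA, had a smaller median difference. Of 18 genes tested 1 was lower (5.56%, beside 10.3% of all tested probes), Suclg1 of succinyl-CoA ligase (−0.19, SE 0.06, adjusted p = 0.0343), and 0 were higher, with a median of −0.12. The mean log2 signal of these 18 was 12.40 to 12.55 in TG hearts and 12.54 to 12.64 in WT hearts.

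Promoter windows from 250 bases before to 50 bases after the start site were taken from RefSeq (build GRCr8), where 34 of the 39 members had an entry. Cpt1b, Acaca, Acadl, Acaa2 and Decr1 had none. Both strands were searched for 5 motifs. The GC box (GGGCGG) occurred in 25 of 34 members against 33.1% of all 33469 promoters, and in 10 of the 12 lower members with an entry against 13 of the 17 that did not pass. All promoters were not matched to the members by expression in the heart. Hadha and Hadhb share the stretch printed above, and its GC box lies in the window of each. CCAAT occurred in 16 of 34 members against 37.5% of all, in 6 of 12 lower members and in 6 of 17 that did not pass. The E-box CACGTG occurred in 2 of 34 members, Echdc2 and Pecr, against 6.42% of all promoters. Direct repeats of AGGNCA half-sites with 1 base between, as bound by PPAR and RXR, occurred in 0 of 34 members and 0.415% of all promoters, and TNAAGGTCA, the element of estrogen-related receptors, which can share its last 6 bases with a half-site, in 0 of 34 and 1.20%.

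Parts of the promoters of 4 members with some of the largest falls are shown. Each printed run has 200 bases, fewer than the windows searched for the counts above. The runs leave out a counted GC box of Echdc2 at −237 and a counted GC box of Crat at 18 from the start site. Each run is the stretch printed from RefSeq (GRCr8), 5′ to 3′ in the gene's direction, and capitals mark the GC box, the CCAAT box and the E-box named above, on either strand. Echdc2 lies on the plus strand (chr5:128144686-128144885), Crat on the minus strand (chr3:34087100-34087299), Mlycd on the plus strand (chr19:64356382-64356581) and Eci2 on the plus strand (chr17:30075566-30075765).
Echdc2: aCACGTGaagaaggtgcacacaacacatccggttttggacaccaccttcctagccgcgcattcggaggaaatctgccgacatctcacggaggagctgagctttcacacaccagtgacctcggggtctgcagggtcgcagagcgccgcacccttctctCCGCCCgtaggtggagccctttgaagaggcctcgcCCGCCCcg
Crat: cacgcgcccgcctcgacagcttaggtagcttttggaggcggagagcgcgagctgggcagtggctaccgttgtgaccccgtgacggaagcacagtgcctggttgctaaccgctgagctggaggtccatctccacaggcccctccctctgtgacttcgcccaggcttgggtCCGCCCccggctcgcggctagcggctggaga
Mlycd: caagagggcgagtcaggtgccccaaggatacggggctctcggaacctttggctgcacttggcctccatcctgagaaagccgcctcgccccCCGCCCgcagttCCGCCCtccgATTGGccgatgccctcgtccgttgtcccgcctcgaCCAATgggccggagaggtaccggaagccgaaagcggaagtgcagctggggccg
Eci2: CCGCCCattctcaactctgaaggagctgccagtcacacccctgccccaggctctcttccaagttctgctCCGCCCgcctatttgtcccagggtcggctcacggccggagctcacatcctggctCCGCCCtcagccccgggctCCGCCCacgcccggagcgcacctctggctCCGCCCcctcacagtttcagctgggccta
Eci2 carried 5 GC boxes in this stretch, and Mlycd carried 2 GC boxes and 2 CCAAT boxes. Crat carried 1 GC box in its printed stretch, and Echdc2 carried 2 GC boxes and the E-box in its own. The GC box also occurred in 13 of the 17 members that did not pass, and a link between motifs and differences was not tested.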

How the data were processed

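Total RNA from 12 left ventricles was labelled with biotin and hybridised to Illumina arrays. The authors deposited bead intensities with a detection p-value per probe, which were neither normalised nor background subtracted, and a log2 table that the authors had quantile normalised in Chipster. Bead values had been summarised in GenomeStudio. The depositors' log2 values differed from log2 quantile-normalised intensities by at most 0.005.

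Intensities were background corrected and quantile normalised with neqc (offset 16) in limma 3.58.1 (R 4.3.3). Probes with a detection p-value below 0.05 on at least 6 of 12 arrays were tested with lmFit and eBayes, without covariates, and p-values were adjusted by Benjamini-Hochberg over 9054 probes. Probe names came from the platform annotation, updated through gene numbers (13787 probes named, 8730 unnamed). Every member was accounted for, and values per heart were given for members with a difference of at least 0.5, or the lowest p of a step, together with others described by role. Other lists were named by up to 4 genes with the smallest p, with a few added by role. Members and lists were chosen with earlier results of these data known. Precision is set by how many arrays each group has. The fit was tested on simulated data. Signals of different probes are not on 1 scale, so differences between 2 probes and list means were compared only between groups.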

Additional observations from a re-analysis of the deposited data

Results flagged for a closer look

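Each group of 6 hearts was examined for a single heart standing apart, by the gap to its nearest neighbour as a share of the group's whole range. Of 68 groups, 7 held such a heart, where chance gives about 1 in 20. In TG hearts the share was 0.864 for Cpt1b, 0.66 for Mlycd, 0.64 for Acadvl and 0.626 for Eci1, and in all 4 the heart was TG replicate 3, at the high end. For Acsl1 it was 0.662, with TG replicate 6 at the low end. In WT hearts the share was 0.765 for Acsl3, with WT replicate 5 at the high end, and 0.646 for Acsl5, with WT replicate 6 at the high end. The cause was not tested.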

How the results depend on the processing

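Over alternatives that kept all arrays (other background corrections, normalisations, filters, array weights, variance settings, the replicate block and the deposited log2 table), 331 member differences kept their side of the threshold, 3 lost it, 3 gained it and 0 that had passed changed sign. Those lost were Acsl6 with median scaling or no filter, and Etfa with no filter, and Acadvl was gained with no background correction, the deposited log2 table or a trended robust variance. The pairs Etfa with Etfb and Acsl1 with Acsl3 passed with no background correction, normexp on the intensities, median scaling and the deposited log2 table (adjusted p of 0.013 to 0.026). Leaving out 1 array at a time, 387 kept their side, 18 lost it, 3 gained it and 0 that had passed changed sign. The count of lower members stayed between 13 and 16, that of higher members between 0 and 1, and the median difference between −0.26 and −0.19. The median was −0.16 with no filter and −0.31 with detection required on every array at a stricter p, both over other sets of probes. At an adjusted p of 0.01, limma left 12 members lower and 0 higher.

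With the replicate number as a block, 15 members were lower and 1 was higher, with a median of −0.22. Deviations of same-numbered hearts correlated at −0.145 to 0.227, over 0.1 in 4 of 6, and 3 of 6 hearts correlated best with their own number. Whether equal numbers pair the hearts cannot be decided from these values. Dim probes and those near the top of the scale limit what differences can be seen.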
